A study of Mus musculus with 6 samples.

Results

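In dorsal skin of depilated mice, 267 cells with UMIs of Pinlyp, Wfdc18 or Serpina11 were described, 97 of them at 4 d and 170 at 6 d after depilation. They had been labelled companion layer cells. A cell was taken from the 2 d, 4 d and 6 d libraries by its counts. It held at least 4 unique molecular identifiers (UMIs, each counted as 1 captured transcript) over these 3 genes. Those made at least 8 of every 10000 of its UMIs. It also held under 4 UMIs over 6 keratins, namely Krt25, Krt27, Krt28, Krt71 and Krt73 of the inner root sheath and the hair keratin Krt35. The cells were thus chosen by their UMI counts of these 3 genes and 6 keratins, whose levels are given below as a description. The 267 cells were part of 31860 cells kept at these 3 times and of 55177 kept over all 6 libraries.

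The series held 6 single-cell RNA libraries. One was taken at 0 h, and the others 4 h or 16 h and then 2 d, 4 d or 6 d after the back was shaved and waxed, a procedure that sends resting hair follicles into growth. All mice were wild-type FVB males, 55 to 57 days old, with no transgene and no drug. Each time point was 1 library of mixed cells from 2 mice, so no time point had a replicate, nothing was tested between times, and intervals on counts and shares cover counting error only. The libraries kept 6925, 7663, 8729, 9534, 12410 and 9916 cells with 71882093, 72085606, 108890558, 92452121, 92815933 and 87529162 UMIs, in order of time. Any 2 libraries shared between 7 and 40 cell barcodes, at most 0.458% of the smaller one.

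The companion layer is a single sheet of keratinocytes between the outer and the inner root sheath of the growing hair follicle. Its cells adhere to the inner root sheath by many desmosomes and slide along the outer root sheath as the hair moves up. Its classical marker is Krt75, a type II keratin, and it also holds keratins of the Krt6, Krt16 and Krt17 group, which the epidermis switches on after wounding. Pinlyp is a protein with the Ly6 and PLAUR fold of phospholipase A2 inhibitors, Wfdc18 is a small secreted protein with a whey acidic protein domain, and Serpina11 belongs to the serpin protease inhibitors.

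In the GRCm38 (mm10) annotation of GENCODE vM21, all the genes that labelled these cells are protein coding. Pinlyp lies at chr7:24541658-24546118 on the minus strand, Wfdc18 at chr11:83709015-83711348 on the plus strand and Serpina11 at chr12:103980243-103989957 on the minus strand. Krt75 lies at chr15:101563345-101573904 on the minus strand, on the same chromosome and strand as Krt79 at chr15:101929332-101940324. Pla2g7 lies at chr17:43568098-43612201 on the plus strand and Penk at chr4:4133531-4138819 on the minus strand. The 200 bases before the RefSeq start are printed for Wfdc18 and Krt75, since these genes were mostly found in different cells of the group. They are written 5′ to 3′ along the gene's own strand on GRCm38.p6, with matches to a searched motif in capitals.

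Wfdc18, chr11:83708804-83709003, plus strand: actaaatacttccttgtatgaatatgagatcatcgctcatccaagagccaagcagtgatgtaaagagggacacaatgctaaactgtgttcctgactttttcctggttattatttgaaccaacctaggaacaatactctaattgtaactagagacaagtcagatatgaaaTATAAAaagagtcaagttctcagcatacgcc
Krt75, chr15:101573905-101574104, minus strand: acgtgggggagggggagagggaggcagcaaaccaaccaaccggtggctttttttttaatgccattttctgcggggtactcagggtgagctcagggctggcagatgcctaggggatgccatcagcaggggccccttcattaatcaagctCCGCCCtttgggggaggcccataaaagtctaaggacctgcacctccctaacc

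The letters searched, on both strands, were TATAAA of the TATA box, CCAAT of the CCAAT box, GGGCGG of the GC box and TGANTCA of the AP-1 site, and the matches did not overlap. The Wfdc18 window held 1 match, TATAAA, beginning 31 bases before the start. The Krt75 window held 1 match, GGGCGG read on the other strand as CCGCCC, beginning 52 bases before the start. Of 27025 promoter windows of the same length, 10.6% held TATAAA, 31.3% GGGCGG, 30% CCAAT and 5.55% TGANTCA.

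Cells inside the rule were 0 of 9534 at 2 d, which allows a share of up to 0.0315% by 3 counts and of up to 0.0387% by the exact Clopper-Pearson 95% interval. They were 0.782% of the cells at 4 d (interval by the same method 0.634 to 0.953%) and 1.71% at 6 d (1.47 to 1.99%). The 2 d library did contain 68 cells with at least 4 UMIs over the 3 genes, but in each of them these made under 8 of 10000 UMIs. Before 2 d, the same rule was met by 3 cells of the 0 h library, 5 of the 4 h library and 3 of the 16 h library. All of these 11 cells had Pinlyp and none had Wfdc18.

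**Figure D1:**
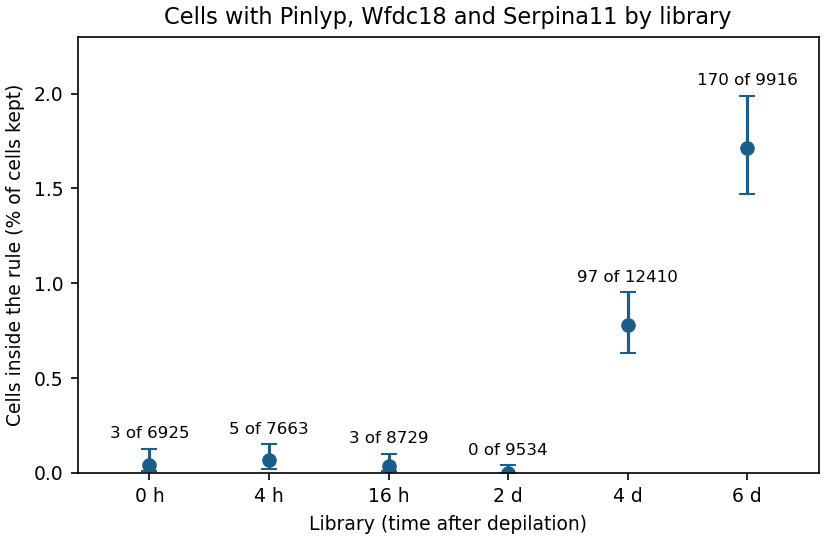
Share of kept cells inside the rule (vertical axis, %) in each of the 6 libraries (horizontal axis, time after depilation), with exact Clopper-Pearson 95% intervals as bars and the number of cells above each point. The 4 earlier libraries lie near 0, with 0 of 9534 at 2 d, and the share stands at 0.782% at 4 d and 1.71% at 6 d.

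Cells stood on both sides of each threshold of the rule. Exactly 4 UMIs of the 3 genes were held by 5 cells at 4 d and 11 at 6 d, against 6 and 7 cells that had 3 UMIs and met the other conditions. Between 8 and 10 of 10000 UMIs stood 17 and 24 cells inside, and between 6 and 8 stood 14 and 31 cells outside, so at 6 d more cells lay just outside this threshold than just inside it. The keratin limit took out 5 cells at 4 d and 8 at 6 d. The cells inside had a median of 6795 UMIs and 2312 genes at 4 d and of 6102.5 UMIs and 2107.5 genes at 6 d. Scrublet scores marked 12 of the 97 and 16 of the 170 as possible doublets, against 1541 of all 12410 and 926 of all 9916 cells. The number marked in a library was set by its number of barcodes, and the marked cells were kept.

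Most Pinlyp UMIs of the 4 d and 6 d libraries were in these cells. At 4 d they carried 65.2% of the library's Pinlyp UMIs and at 6 d 81.0%, and they were under 2 in 100 of its cells. For Wfdc18 the shares were 32.9% and 61.4%, and for Serpina11 39.6% and 48.5%. Since the rule chose cells by their UMIs of Pinlyp, Wfdc18 and Serpina11, high shares are in part built in, and they are a description. Over all cells of a library, Pinlyp stood at 5.70, 8.48, 9.72, 14.5, 38.8 and 101.5 UMIs per 1000000 UMIs (CPM) in order of time, so it was low through 2 d and higher at 4 d and 6 d. Wfdc18 stood at 0.0974, 0.111, 0.0276, 0.260, 9.20 and 10.97 CPM, with the 4 earlier libraries far below the later pair.

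Within the cells inside the rule, the summed counts gave Pinlyp a level of 2556.5 CPM at 4 d (exact Poisson 95% interval 2454 to 2662) and of 4961 at 6 d (4847 to 5077). Wfdc18 stood at 306 and 406 CPM and Serpina11 at 271 and 406. Values in CPM are shares of captured 3′ ends and are compared here within a gene, not between genes. The median cell stood at 10.7 and 11.2 of 10000 UMIs of Pinlyp at 4 d and 6 d, while the 90th percentile stood at 50.9 and 95.0, so the higher sum at 6 d lay in the cells with the most Pinlyp. A single cell with 1356 UMIs held 18.8% of all Pinlyp UMIs at 6 d, and 10.6% of those at 4 d came from 1 cell.

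The label was met only in part. Krt75, the keratin that defines the companion layer, stood at 660 CPM at 4 d and 513 at 6 d, and at least 1 UMI of it was found in 54 of 97 cells and 87 of 170 cells. After thinning each cell to 2000 UMIs, Krt75 was found in 40% of the cells at 4 d and 33.3% at 6 d, against 0% and 0.602% of T cells thinned alike, which should lack it. T cells, taken by UMIs of T cell receptor and Cd3 genes, numbered 1010 and 394 with a median of 2685 and 2836 UMIs. Thinning left 725 and 332 of them and 95 and 168 of the cells inside the rule, and unthinned T cells had Krt75 in 0.495% and 0.761%. Pla2g7, the platelet-activating factor acetylhydrolase, had a UMI in 75 of 97 and 120 of 170 cells, at 404 and 493 CPM. Penk, the precursor of enkephalin peptides, had one in 18 and 16 cells, at 36.0 and 17.9 CPM. These cells also held 23.7% and 33.5% of each library's Krt75 UMIs, so most Krt75 lay outside the rule. Since Krt75 had no UMI in about every other cell, the group is called here by the genes of its rule.

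The counts of the 3 genes together are a description, since their summed UMIs chose the cells. Pinlyp and Serpina11 both had a UMI in 49 of 97 cells at 4 d and 73 of 170 at 6 d, Pinlyp and Wfdc18 in 25 and 33, and Wfdc18 and Serpina11 in 25 and 23. All 3 had one in 19 and 18 cells. Whatever the other genes held, Pinlyp reached 4 UMIs in 61 and 101 cells, Wfdc18 in 37 and 56, and Serpina11 in 23 and 43. Krt79, a keratin of the hair canal and the upper follicle, split the cells further. It made at least 10 of 10000 UMIs in 83 of 97 cells at 4 d and in 108 of 170 at 6 d, with only 4 and 10 cells between 5 and 20 of 10000. Krt79 had a UMI in 89.5% and 71.4% of thinned cells, against 19.4% and 16.3% of thinned T cells.

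By these counts, after their values were seen, the cells were set apart into Wfdc18 cells (at least 4 Wfdc18 and under 4 Pinlyp UMIs), Pinlyp cells with Krt79 (at least 10 of 10000) and Pinlyp cells without Krt79. The Wfdc18 cells were 28 at 4 d and 50 at 6 d. Pinlyp cells with Krt79 were 50 and 64, and those without Krt79 were 2 and 31. Another 9 and 6 cells reached 4 UMIs of both genes, and 8 and 19 of neither. These are ranges cut from counts, not cell types.

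**Figure D2:**
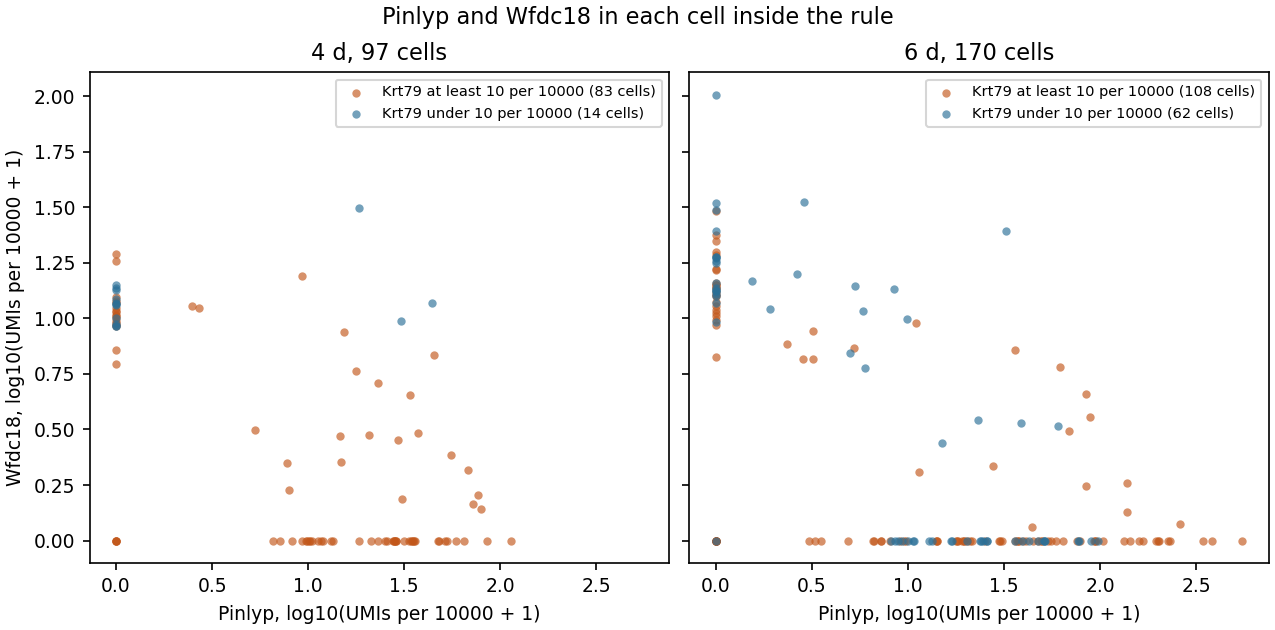
Pinlyp (horizontal axis) and Wfdc18 (vertical axis), both as log10 of UMIs per 10000 plus 1, in each cell inside the rule at 4 d (left, 97 cells) and 6 d (right, 170 cells), with points coloured by whether Krt79 made at least 10 of 10000 UMIs. Most points lie along one axis or the other, and at 6 d a group of blue points without Krt79 lies along the Pinlyp axis.

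Krt75 was found in most Pinlyp cells and in few Wfdc18 cells. It had a UMI in 42 of 50 and 44 of 64 Pinlyp cells with Krt79 and in 28 of 31 Pinlyp cells without Krt79 at 6 d. Among Wfdc18 cells it had one in 1 of 28 and 4 of 50. The Krt75 level was 5.59 and 51.2 CPM in Wfdc18 cells, where at 6 d 1 cell at 37.6 of 10000 UMIs set most of it and the other 3 had between 1.11 and 1.62, and 811 and 360 CPM in Pinlyp cells with Krt79, at 4 d and 6 d, and 1635 CPM in Pinlyp cells without Krt79 at 6 d. The 11 cells with the most Pinlyp, a number chosen after the values were seen, all had Krt75 at 4 d, between 1.80 and 31.4 of 10000 UMIs. At 6 d 9 of the 11 had none and the highest stood at 6.13 of 10000. At least 2 UMIs of Krt75 were in 31 of 64 Pinlyp cells with Krt79 and in 1 of 50 Wfdc18 cells at 6 d.

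Other genes differed between these cells in the same description, with no test because the cells were split by the values seen. Cst6, a cysteine protease inhibitor of cornifying epithelia, stood at 7567 and 13146 CPM in Pinlyp cells with Krt79, against 279 and 1044 in Wfdc18 cells. Inhba, which encodes the activin A subunit, stood at 134 and 176 CPM against 11.2 and 0. The adhesion molecule Alcam stood at 1275 and 1011 CPM against 525 and 444. In the other direction, Krt5, a keratin of basal cells, stood at 3124 and 2239 CPM in Wfdc18 cells and at 1464 and 729 in Pinlyp cells with Krt79. Gja1, the gap junction protein connexin 43, stood at 285 and 543 CPM against 81.1 and 98.0. The Wfdc18 cells were therefore the side with more Krt5 and Gja1, and the Pinlyp cells with Krt79 the side with more Cst6, Inhba and Alcam, at both times. The Wfdc18 cells were not split by Krt79, and 17 of 28 and 26 of 50 of them reached the same Krt79 limit. The part of Krt79 in these differences was not tested. T cell markers also stood apart between the Wfdc18 cells and the Pinlyp cells with Krt79. The 9 summed to 464 and 65.4 CPM in Wfdc18 cells, with all 9 found at 4 d and 2 at 6 d and Cd3g the most abundant at 4 d (201 CPM, 0 at 6 d), against 26.4 and 43.9 CPM in Pinlyp cells with Krt79. All 143 UMIs of Gzmc and all 46 of Ccl5 at 4 d, both genes of cytotoxic lymphocytes, were in 1 Wfdc18 cell each. The part of T cell transcripts in these differences was not tested.

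The 31 Pinlyp cells without Krt79 at 6 d had a further set of genes. Their Krt6a level was 2386 CPM, against 893 in Wfdc18 cells and 1185 in Pinlyp cells with Krt79. Spink5, an inhibitor of kallikrein proteases, stood at 2749 CPM (461 and 865 in those groups), and Klk10, a kallikrein-related peptidase, at 1251 (68.3 and 496). F3, the tissue factor of blood clotting, stood at 901.5 CPM (62.6 and 288), Cldn4, a tight junction claudin, at 822 (79.7 and 259), and Sox9, a transcription factor of the outer root sheath and bulge, at 1617 (768 in each). Spink5, Klk10, F3 and Cldn4 belong to a list chosen on these same libraries for cells of the inner bulge layer, so they are not independent evidence of what these cells are.

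Krt75 was also found in cells outside the rule. Cells with at least 4 Krt75 UMIs making 8 of 10000 were 60 at 4 d and 57 at 6 d beyond those inside. Of them, 17 at 4 d and 2 at 6 d were inner root sheath keratin cells by their keratin counts. The sums over all 60 and 57 cells held Krt71 at 1837 and Krt25 at 1665 CPM at 4 d, and both at 29.0 CPM at 6 d.

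**Figure D3:**
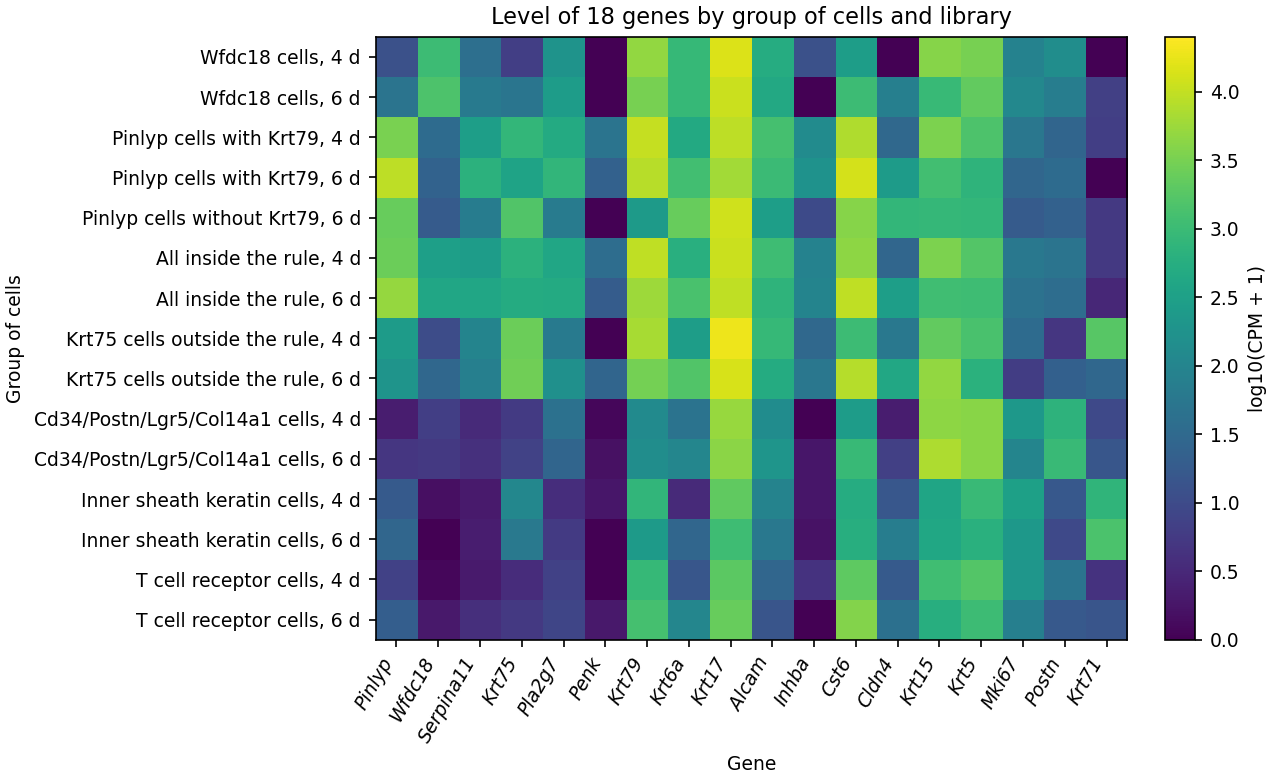
Level of 18 genes (columns) as log10 of CPM plus 1 (colour) in the cells inside the rule, their 3 subsets and 4 other groups of cells (rows), each at 4 d and 6 d, with Pinlyp cells without Krt79 at 6 d only. Krt75 is bright in the Pinlyp rows and in the Krt75 cells outside the rule and dark in the Wfdc18 rows, and Krt79 is dark in the Pinlyp cells without Krt79.

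Markers of other cells of a skin suspension were summed over all cells inside the rule. The 6 fibroblast and dermal papilla markers summed to 5.45 CPM at 4 d and 0 at 6 d, and the endothelial and muscle markers to 0 at both. The 9 T cell markers summed to 107 and 47.5 CPM, with Cd3g at 41.4 and 0, and the Langerhans cell and macrophage markers to 85.0 and 64.8. Melanocyte markers summed to 322 and 5.51 CPM, but 1 cell held 99.2% of the 122 Dct UMIs at 4 d. The part that doublets and free RNA have in these values was not tested.

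To ask how the cells differed from the basal outer root sheath and bulge, their counts were summed per library and set against cells with UMIs of Cd34, Postn, Lgr5 or Col14a1 beside Krt5 and Krt14, of which there were 880 at 4 d and 607 at 6 d. edgeR's quasi-likelihood test with the library as a block was fitted over 10523 genes, with p-values adjusted by Benjamini-Hochberg. With 2 libraries there were 4 sums and 1 residual degree of freedom, and the fit also draws on the dispersion of all genes. A p-value here therefore does not measure the spread between mice. A call also does not mean that the difference was alike at 4 d and 6 d. Of the genes tested, 13.7% were higher in the cells inside the rule and 12.4% lower, and the median log2 change over all genes was -0.01. Genes that chose either group of cells were left out of all calls.

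The 10 genes with the largest differences upward are given first. Krt79 stood at 9406 and 5774 CPM at 4 d and 6 d against 125.5 and 143 in the basal cells, a log2 change of 5.96 ± 0.26 (SE, edgeR adjusted p = 1.301e-08). Krt75, a label gene and so given with no test, stood at 660 and 513 against 4.54 and 6.31 CPM. Both keratins were far apart in both libraries. Rarres1, a gene induced by retinoids, stood at 171 and 172 against 0.726 and 1.72 CPM (log2 change 7.35 ± 0.34, adjusted p = 1.493e-08 by edgeR). Klk6, a kallikrein-related peptidase, stood at 24.0 and 293 against 0.182 and 2.87 CPM. The claudin gene Cldn3 stood at 21.8 and 151 against 0.363 and 0.573, and Inhba at 88.2 and 96.5 against 0 and 0.860. The levels of Klk6 and Cldn3 inside the rule were higher at 6 d than at 4 d, while those of Rarres1 and Inhba were alike at both times. Cpm, a membrane carboxypeptidase, Bglap3, Sdr16c6, a short-chain dehydrogenase, and Psapl1, a prosaposin-like gene, were the others, with log2 changes of 6.83, 6.82, 6.54 and 5.99.

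Downward, the 10 genes with the largest differences were low inside the rule at both times. Col4a1 and Col4a2, the chains of basement membrane collagen, stood at 4.36 and 1.38 and at 2.18 and 0 CPM, against 152.5 and 76.3 and 67.0 and 41.0 in the basal cells (Col4a1 log2 change -5.20 ± 0.37, adjusted p = 4.748e-07 by edgeR). Grem1, a BMP antagonist, stood at 1.09 and 2.76 against 70.6 and 117 CPM. Dkk3, of the dickkopf family, stood at 8.71 and 3.45 against 79.7 and 144.5 CPM. All of these were near the level of a few UMIs in the cells inside the rule. Krt24, Megf6, Edn2, Bdnf, Ampd3 and Crispld1 were the others, each at under 5 CPM in the cells inside the rule in both libraries.

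Keratin and junction genes were mostly higher. Of the companion layer and wound keratins other than Krt75, all 3 tested were higher, Krt17 (log2 change 1.28), Krt6a (3.85) and Krt16 (2.20). Desmosome genes were higher for 10 of 14 tested and lower for none, with a median log2 change of 1.57 against -0.01 over all genes. Perp, a desmosomal membrane protein, stood at 3048 and 3168 CPM against 991 and 1035, and Jup, which encodes plakoglobin, at 518.5 and 712 against 133.5 and 214 (log2 changes 1.79 and 2.02). Gap and tight junction genes were higher for 12 of 16 tested and lower for none (median 1.99), among them Gjb2, the connexin 26 gene, Cldn1 and Tjp1 (log2 changes 3.25, 2.01 and 1.97). Gja1 did not pass the test (-0.34, adjusted p = 0.405 by edgeR). These shares were well above the 13.7% of all genes that were higher.

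Genes that tie keratinocytes to the basement membrane went the other way, beside 12.4% of all genes that were lower. Of 13 integrin and basement membrane genes, 12 were lower and none higher, with a median log2 change of -2.03. Col17a1, the hemidesmosomal collagen, stood at 113 and 87.5 CPM against 612 and 959 (-2.78), and Dst, which encodes dystonin, at 111 and 99.9 against 727 and 737 (-2.63). Itga6 was lower by the same test (-1.60), and Cd151 did not pass it (0.11). The outer root sheath and bulge list was lower for 9 of 10 tested, with Krt15 at 3408 and 1111 against 4500 and 7323 CPM. The exception was Sox9, which was higher (0.69). Another 6 of the 16 genes of that list had chosen the cells and were left out. Since the basal cells were taken by basal and bulge genes, the counts of both lists are a description. All 10 cycling markers were lower (median -1.49). Summed, they stood at 1090 and 1269 CPM in Wfdc18 cells and 609 and 413 in Pinlyp cells with Krt79, at 4 d and 6 d. The basal cells had 2567 and 1224 CPM, so at 6 d the sum in Wfdc18 cells was not lower.

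Hedgehog and Wnt genes were more often lower than higher, and the other signalling lists were mixed, beside 13.7% higher and 12.4% lower of all genes. Of 10 Hedgehog pathway genes, 9 were lower and none higher, including the receptor gene Ptch1 (55.6 and 17.2 against 224 and 75.4 CPM, log2 change -1.89), the transcription factor Gli1 (-1.67) and the co-receptor gene Gas1 (-1.78), while Smo, the signal transducer, did not pass (-0.42). Of 18 Wnt pathway genes, 10 were lower, among them the inhibitor Sfrp1 (-3.49) and the receptor gene Fzd2 (-2.91), and 1 was higher, the ligand gene Wnt11 (4.36). The Notch list had 4 of 11 higher, the receptor genes Notch1 (1.31), Notch2 (2.19) and Notch3 (3.59) and the feedback inhibitor Nrarp (3.04), and 3 lower, of which the ligand gene Jag2 fell by 2.80. BMP, TGF-beta and activin genes had 7 of 22 higher and 8 lower. Inhbb (1.28), Bmp6 (2.60) and Bmp7 (1.57) were among the ligands that were higher, and the BMP response gene Id3 (-1.24) and the activin antagonist Fst (-3.48) were lower. FGF and EGF family genes had 7 of 14 higher and 4 lower, with the ligand gene Tgfa at 82.8 and 99.9 against 1.45 and 4.59 CPM (5.19) and the receptor gene Fgfr1 lower (-1.33).

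Among 34 keratinocyte transcription factor genes, 11 were higher and 10 lower, beside the same shares of all genes. Foxc1 (log2 change 1.87), Foxp1 (1.48) and Runx1 (0.92) were higher, and Nfib (-1.68), Trp63, the regulator of basal keratinocytes (-1.16), and Lhx2, a bulge factor (-1.71), were lower. Of 15 suprabasal epidermis and upper follicle genes, 13 were higher and none lower (median 3.62). Among those higher, Lor stood at 9.80 and 1082 against 10.9 and 164 CPM, and Krt77 at 38.1 and 1424 against 36.9 and 70.5. These 2 differences thus lay at 6 d. At that time 46.6% of the Lor and 57.3% of the Flg UMIs inside the rule were in 1 cell each. In lists chosen on these same libraries, the 6 genes tested of an inner root sheath cluster, beside the label genes, and the 9 of the inner bulge were all higher, which is not independent evidence of direction.

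Members of the families of the rule genes were also counted, beside 13.7% higher and 12.4% lower of all genes. Of 8 genes with the Ly6 and PLAUR fold, 4 were higher and 2 lower. Ly6d stood at 2671 and 4285 against 441 and 316 CPM (3.35), and Ly6g6c and Lypd3 were higher too (5.57 and 2.45). Of 11 secreted protease inhibitors, 6 were higher and 5 lower, with Cst6 the most abundant among those that rose (3.90). Of 14 phospholipase and eicosanoid genes other than Pla2g7, 6 were higher and 1 lower, with the lipoxygenase gene Alox12e among those higher (138 and 122 against 13.6 and 15.8 CPM, 3.32). Of the opioid peptide list, 1 gene beside Penk was tested, the processing enzyme gene Cpe, and it was higher (0.87). Actin and contractile genes had 7 of 15 higher, with Actg1 (0.95), Cald1 (1.39) and Tpm1 (1.28) among them, and 4 lower. Of 5 sebaceous gland genes tested, 3 were higher, among them Plin2, a coat protein of lipid droplets (2.53). Of 7 T cell genes tested, none was higher and 2 were lower, and 3 of 4 melanocyte genes were higher, with 99.2% of the Dct and 96.6% of the Pmel UMIs at 4 d in 1 cell each. Of 3 Langerhans cell and macrophage genes tested, 1 was higher, the class II antigen gene H2-Ab1 (58.8 and 56.5 against 4.72 and 7.74 CPM, 3.41), which made up most of that list's sum given above.

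The inner root sheath comparison set the cells against those with UMIs of the 6 keratins, 534 at 4 d and 147 at 6 d. They are called inner sheath cells for short, although Krt35 among the 6 is a hair keratin. The 15 hair shaft and matrix genes counted summed to 1160 and 2239.5 CPM in them. In this comparison 18.1% of 9272 genes were higher and 18.1% lower (median log2 change -0.01). Decorin (Dcn), a proteoglycan best known from fibroblasts, had at least 4 UMIs in 158 and 25 of the inner sheath cells and stood there at 624.5 and 498 CPM, with Col1a1 at 1.94 and 0, and its part in this comparison was not tested. Inner root sheath genes were lower for 7 of 7 tested, but the rule removed cells with such keratins, so this is a description.

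Pla2g7 stood at 404 and 493 CPM against 2.82 and 4.49 in the inner sheath cells, and Krt75 at 660 and 513 against 106 and 60.3. These label genes were thus well above the inner sheath at both times. Krt6a stood at 594 and 1343 against 2.29 and 27.6 CPM (log2 change 6.61 ± 0.43, adjusted p = 4.654e-06 by edgeR). Prss12, a secreted serine protease gene, stood at 63.2 and 66.8 against 0.353 and 0.641 CPM. Sox9 stood at 994.5 and 927 against 42.5 and 44.2 (4.50), and the homeobox gene Barx2 at 601 and 555 against 31.9 and 37.8 (4.09). Sox9, Barx2 and Krt6a had low levels in both inner sheath sums. Inhba, Cldn3, Klk6, Rflna, Fam13a, Tspan2 and St3gal5 were the other genes with the largest differences upward.

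Downward, Gm49425, a gene of unnamed function, and Dcn had the largest differences, and Dcn was described above. Lef1, a transcription factor of Wnt signalling, stood at 3.27 and 0 CPM against 148 and 176, and Msx1, a homeobox gene of the matrix, at 1.09 and 0.689 against 137.5 and 104. The ligand gene Shh stood at 1.09 and 0 against 65.1 and 70.5 CPM. The late cornified envelope genes Lce1a1, Lce1b, Lce1c and Lce1m were also among the 10, as was S100a3, which encodes a calcium-binding protein of the hair cuticle. Lce1m, for example, stood at 3.27 and 24.8 against 643 and 2412 CPM (log2 change -6.75 ± 0.29, adjusted p = 1.089e-06 by edgeR).

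The list counts against the inner sheath stand beside 18.1% higher and 18.1% lower of all genes. Desmosome genes were higher for 8 of 14 and lower for 1, and gap and tight junction genes higher for 9 of 14 and lower for 3, the largest fall being Cldn10 (14.2 and 13.8 against 223 and 129 CPM, -3.55). Integrin and basement membrane genes were higher for 3 of 12, near the share of all genes, and lower for none. The outer root sheath and bulge list was higher for 6 of 12 and lower for 2, with Krt14 at 11034 and 11731 CPM against 1553 and 1429 (2.96). All 10 cycling markers were again lower (median -2.40). Wnt pathway genes were lower for 14 of 22 and higher for 4. Hedgehog genes were lower for 4 of 8, with Ptch1 at -1.64, and Gas1 was higher (2.95). The comparisons share the same sums of cells inside the rule, and whether the changes differed between them was not tested.

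**Figure D4:**
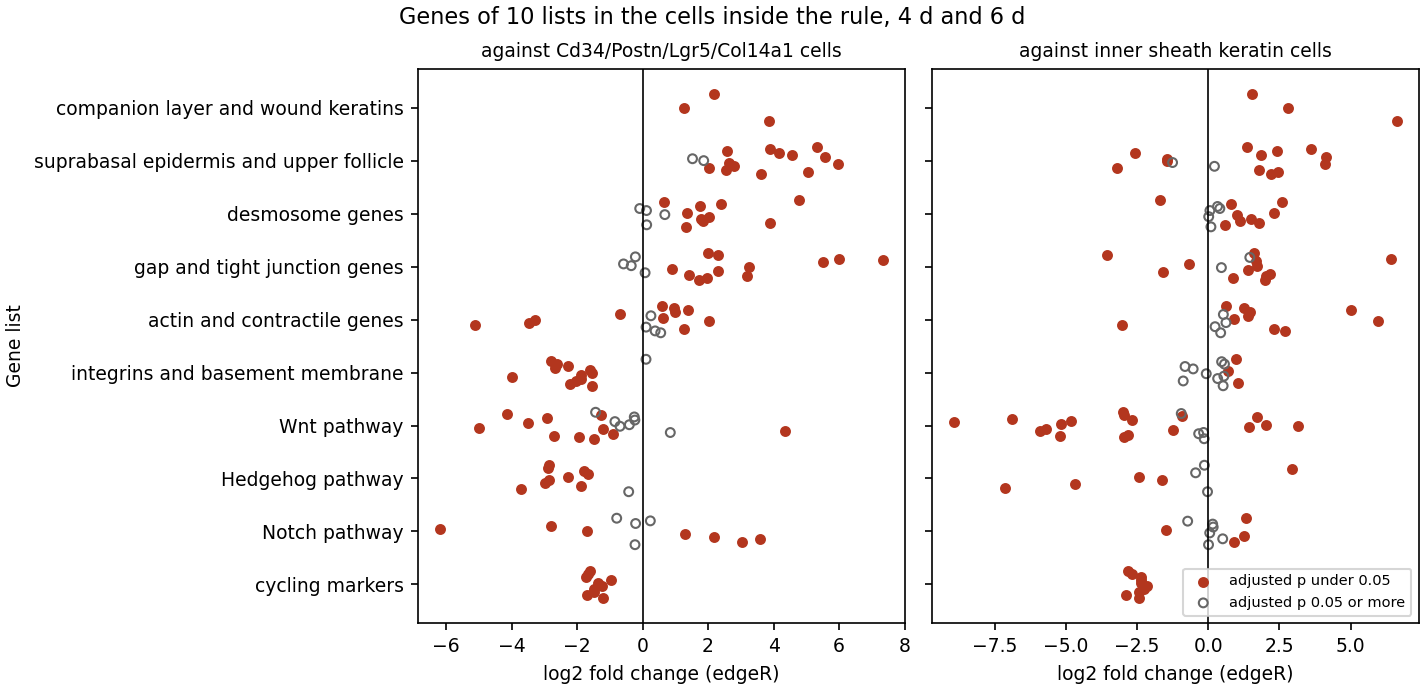
Log2 fold change by edgeR (horizontal axis) of each tested gene of 10 lists (rows), without the label genes Krt75, Pla2g7 and Penk, in the cells inside the rule against basal outer root sheath and bulge cells (left) and inner root sheath keratin cells (right), with filled points for an adjusted p under 0.05. The integrin list lies left of 0 on the left panel, where 12 of 13 genes were lower, and about 0 on the right panel, and the cycling markers lie left of 0 on both.

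The last comparison used cells with UMIs of Sncg, Gpc6, Them5 or Tspan2, 109 at 4 d and 110 at 6 d. They were taken as bulge cells by these genes, and their counts went against that label. The group stood at 16873 and 40676.5 CPM of Lor, the main protein of the cornified envelope, and at 272 and 14.0 CPM of Sncg, and 48 and 61 of its cells reached 4 UMIs of Them5. These cells are therefore called here by their gate genes. In this comparison 6.72% of 8056 genes were higher and 10.8% lower. With Them5 left out of the gate, 36 and 19 cells remained, the calls fell from 1414 to 310, and Lor and Wfdc21 changed direction. No gene was called by edgeR without the library block (1342 at an unadjusted p under 0.05), DESeq2 with the block called 462, and 344 were called with predicted doublets removed.

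Krt79 stood at 9406 and 5774 CPM against 155.5 and 128 in these cells (log2 change 5.42 ± 0.24, adjusted p = 1.163e-13 by edgeR), and Pla2g7 at 404 and 493 against 2.07 and 26.2. Tm4sf1, a tetraspanin-like membrane protein gene, stood at 473 and 258 against 27.0 and 8.43 CPM (4.22), and Glul, which encodes glutamine synthetase, at 180 and 127 against 4.15 and 8.43 (4.05). St3gal5 and Fam13a had no UMI in the other cells and 77 and 56 UMIs and 80 and 31 UMIs inside the rule, and Inhba, Nhs, Hist1h1b and Basp1 had at most 4 UMIs in any of the other sums. The genes with the largest differences downward were Lce3c, Fgf18, Fgf22, Il1f10, Lce1m, Il1f6, Lor, Wfdc21, Smpd3 and Flg2, of which the Lce genes, Lor and Flg2 encode proteins of the cornified envelope and its granules. Integrin and basement membrane genes were lower for 3 of 10 and higher for none, and 4 of 10 cycling markers were higher, beside 6.72% higher and 10.8% lower of all genes.

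From 4 d to 6 d, the sums of the cells inside the rule were compared with no test. Of 3307 genes with at least 50 CPM at either time, 7.71% (255 genes) were at least 2-fold higher at 6 d with Poisson intervals that did not overlap, and 3.72% (123 genes) were lower. The median log2 ratio of 6 d to 4 d over these genes was -0.12. Scaling by TMM raised each log2 ratio by 0.191, which gave 350 higher and 51 lower genes. The share of the subsets also differed between the times, the Pinlyp cells without Krt79 being 2.06% of the cells inside the rule at 4 d and 18.2% at 6 d.

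Of 15 suprabasal epidermis and upper follicle genes, 13 were past this rule upward and none downward, beside 7.71% upward of all genes. Of these 13, Spink5 alone met the limits on how many cells held a gene and on the share of 1 cell that are given further on for genes held by many cells. Lor stood at 9.80 CPM at 4 d and 1082 at 6 d, but 1 cell gave 46.6% of its UMIs at 6 d. Flg, the filaggrin gene, stood at 2.18 and 240.5 with 57.3% from 1 cell, and Hrnr, its relative hornerin, at 0 and 212 with 52.6% from 1 cell. T cells of the same libraries, which should lack these genes, stood at 28.1 and 779 CPM for Lor and at 95.7 and 1084 for Flg, so these genes were also higher at 6 d there. Sprr1a, a small proline-rich envelope protein gene, was held more widely at 6 d. It stood at 43.6 and 2040 CPM and was in 6 of 97 and 74 of 170 cells, with 57.5% of its 4 d UMIs in 1 cell. Sprr1a was also higher at 6 d in the inner root sheath keratin cells (12.0 and 401 CPM) and the basal cells (13.1 and 81.1). The cells with Sncg, Gpc6, Them5 or Tspan2 had 99.55 and 1420.5 CPM of it. Crct1 stood at 16.3 and 697 CPM, in 6 and 79 cells. The other genes with the largest ratios upward were Flg2, 2310046K23Rik and 2310050C09Rik.

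Downward, several of the largest ratios rested on single cells. All 143 UMIs of Gzmc and all 46 of Ccl5, both genes of cytotoxic lymphocytes, were in 1 Wfdc18 cell each at 4 d. Dct and Pmel, pigment cell genes, had 99.2% and 96.6% of their 4 d UMIs in 1 cell, and Vim, S100a4 and Dusp2 were in 10, 10 and 14 cells.

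Genes held by at least 40% of the cells at the higher time, with at most 10% of UMIs in 1 cell, were picked out after the values were seen. They were 72 of the 255 higher and 61 of the 123 lower genes, and 20 and 10 of them also moved at least 2-fold the same way in the rest of the library. Ctsl, the lysosomal protease cathepsin L, stood at 402 and 2323 CPM inside the rule and at 108 and 227 in the rest of the library. Nupr1, a stress-induced chromatin protein gene, stood at 330 and 1576 CPM (67.5 and 175 in the rest). The BMP response genes Id1 and Id3 stood at 81.7 and 262.5 CPM and at 69.7 and 311, against 320 and 300 and 312 and 441 in the rest. Id1 was thus higher at 6 d inside the rule and near level outside it. Spink5 stood at 63.2 and 1104 CPM (119 and 442 in the rest) and F3 at 24.0 and 312 (15.8 and 91.2), the same genes that were high in the Pinlyp cells without Krt79. Within Pinlyp cells with Krt79 alone, Spink5 stood at 43.4 and 865 and F3 at 28.3 and 288, so a difference of the same direction was present inside that subset. T cells of the same libraries stood at 117 and 679 CPM of Spink5 and at 6.01 and 49.1 of F3, higher at 6 d too, and the part of free RNA in these values was not tested.

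Downward, Krt15 stood at 3408 and 1111 CPM inside the rule and at 2853 and 2531 in the rest of the library. Lap3, a leucine aminopeptidase gene, stood at 1065 and 389 (376 and 101 in the rest), and Idh1, cytosolic isocitrate dehydrogenase, at 485 and 191 (86.4 and 43.5). Enpp1, an ectonucleotide pyrophosphatase gene, stood at 231 and 72.3 CPM (34.7 and 16.8). Krt15 was also lower at 6 d in T cells (1113 and 573 CPM) and in the cells with Sncg, Gpc6, Them5 or Tspan2 (16794 and 5923), and higher in the basal cells (4500 and 7323). Lap3, Idh1 and Enpp1 stood lower at 6 d both inside and outside the rule.

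**Figure D5:**
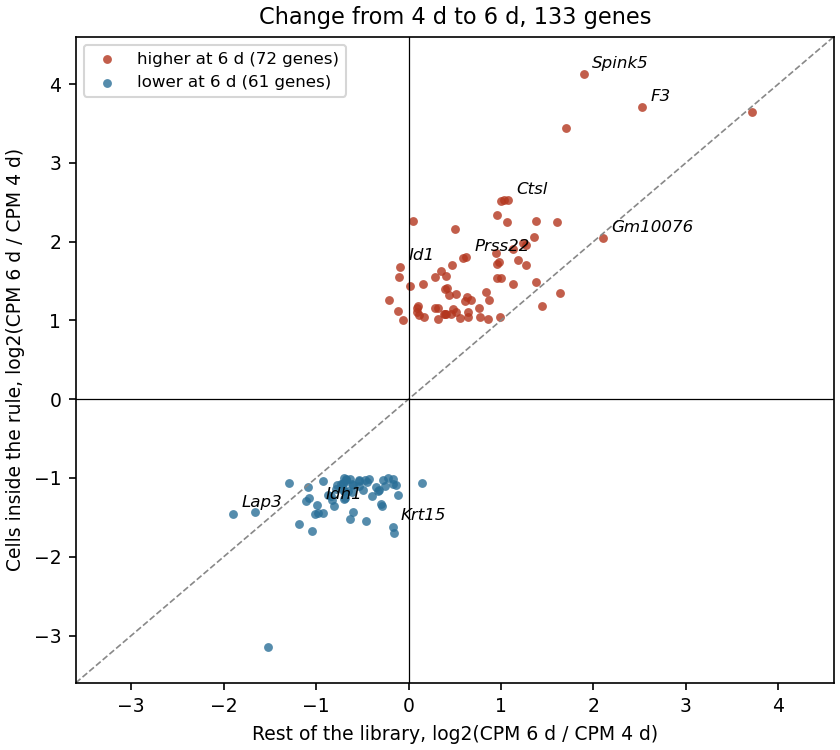
Log2 ratio of CPM at 6 d to CPM at 4 d in the cells inside the rule (vertical axis) against the rest of the library (horizontal axis), for the 72 higher (red) and 61 lower (blue) genes held by many cells, with the line of equal ratios dashed. Gm10076 lies near the dashed line, while Krt15 and Id1 lie near 0 on the horizontal axis.

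Cycling was read from 10 marker genes after each cell was thinned to 2000 UMIs, with at least 2 UMIs taken as a cell with cycling transcripts. Such cells were 18 of 95 at 4 d (18.9%, exact interval 11.6 to 28.3%) and 28 of 168 at 6 d (16.7%, 11.4 to 23.2%), with 2 shallower cells left out at each time. Thinned alike, basal outer root sheath and bulge cells had 41.4% and 18.5%, and inner root sheath keratin cells 75.9% and 50.3%. The cells with Sncg, Gpc6, Them5 or Tspan2 had 9.43% and 2.73%. Thinned T cells, whose own cycling the markers also read, had 45.1% and 46.7%. Without thinning the shares inside the rule were 51.5% and 44.1%. Unthinned basal cells had 63.2% and 40.5%, inner sheath cells 90.3% and 76.2%, and T cells 48.9% and 66.5%. Unthinned cells with Sncg, Gpc6, Them5 or Tspan2 had 20.2% and 30%, so their direction by time turned. At 6 d the share inside the rule was below that of the basal cells with thinning and above it without. After thinning, Wfdc18 cells inside the rule had 25% (7 of 28) and 30% (15 of 50), and Pinlyp cells with Krt79 had 20% (10 of 50) and 4.76% (3 of 63). These subsets were split within 1 library a time after their values were seen, so the shares are a description. The part of free RNA in these shares was not tested.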

How the data were processed

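The authors deposited filtered 10x 3′ count matrices of UMIs per gene and cell; per the submitters' processing notes these were made with Cell Ranger 6.1.2 on mm10. Whole-number counts were used as deposited. Barcodes with 500 to 7000 genes and at most 10% mitochondrial UMIs were kept. The study's own cell annotation was not used here, so cells were taken by UMI counts of named genes. The cells and the gene lists were chosen with earlier results of these data known. Summed counts per library and group of cells were tested with edgeR 4.0.16 in R 4.3.3 (filterByExpr, TMM, glmQLFit and glmQLFTest, library as a block, Benjamini-Hochberg, threshold 0.05); SE is the log2 change divided by the root of F. The 2 d library held no cell inside the rule and was left out of these fits. Named genes were the 10 with the largest change in each direction with at least 50 CPM in the higher group and the same sign in both libraries, or by time the 8 with the largest ratio. List members were named as examples, and not all of them were abundant. Some results that met these rules are not reported here. Single-library values carry exact Poisson or Clopper-Pearson 95% intervals, and the floor for a count of 0 was 3 UMIs. Scrublet (scanpy 1.11.5) was run per library; its top scores, at 0.8% per 1000 barcodes, were removed only as an alternative, since its own threshold marked almost none outside 4 d. The script was tested on simulated data. DESeq2 1.42.0, other size factors, no filter, no block, stricter cell rules and doublet removal were alternatives.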

Additional observations from a re-analysis of the deposited data

Results flagged for a closer look

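The rule also took 5 cells at 4 h, a library outside the times compared. All 5 had Pinlyp, none had Wfdc18 or Krt75, and 3 had Krt79.

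Vim, Dct and Dusp2 stood on opposite sides at 4 d and 6 d with intervals that did not overlap, and these differences were not tested. Vim stood above the basal outer root sheath and bulge cells at 4 d (log2 ratio 0.551) and below them at 6 d (-1.94), with 44.7% of its 4 d UMIs in 1 cell. Against the inner root sheath keratin cells, Dct had log2 ratios of 0.949 and -4.6, with 99.2% of its 4 d UMIs in 1 cell. Dusp2 had ratios of 3.27 and -1.83 against the same cells, with 24% of its 4 d UMIs in 1 cell. Groups of 3 or fewer libraries were not examined for outlying samples.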

How the results depend on the processing

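Against the basal cells, 2744 genes were called by edgeR, 1092 by DESeq2 and 1192 without the library block. Against the inner root sheath keratin cells the counts were 3354, 1366 and 1278. Against the cells with Sncg, Gpc6, Them5 or Tspan2 they were 1414, 462 and 0 (1342 at an unadjusted p under 0.05), with 344 once predicted doublets were removed and 310 with Them5 left out of the gate, an alternative chosen after seeing the data, under which the log2 changes of Lor and Wfdc21 reversed to 2.23 and 0.49. The cause was not tested. The 19 genes named by rank against the basal cells, without the label gene Krt75, kept their call under each setting run, and the other genes of the lists were not rerun. Of the values rerun against the inner root sheath keratin cells, 3 lost their call without the library block and 1 by DESeq2. Against the cells with Sncg, Gpc6, Them5 or Tspan2, 22 lost it without the block and 7 by DESeq2. There, 2 also lost it with predicted doublets removed and 1 with Them5 left out. Leaving out the 4 d or the 6 d library left 1 sum a group and no residual degree of freedom, so it was not run. The library block is the pairing of the groups within a library.

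The share of cells, in order of time from 2 d on, was 0.126, 1.09 and 2.34% at 4 of 10000 UMIs and 0.156, 1.14 and 2.09% in thinned cells with at least 2 UMIs of the 3 genes. At 16 of 10000 it was 0.411% at 4 d and 1.01% at 6 d, and at 6 UMIs 0.629% at 4 d. TMM scaling left 51 genes lower at 6 d. Within Wfdc18 cells 145 were higher. The cycling share at 4 d and 6 d was 49.5 and 39.9% at 1 UMI, 7.37 and 6.55% at 4 UMIs, and 51.5 and 44.1% with no thinning. At 6 d it was 30% within Wfdc18 cells, 4.76% within Pinlyp cells with Krt79 and 10% within Pinlyp cells without Krt79. Of the other values under these alternatives, 489 kept their direction and side of the threshold, 36 lost their call and 41 moved by more than their error. With 97 and 170 cells, 1 UMI was worth 1.09 CPM at 4 d and 0.689 at 6 d.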

Other observations

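Some differences between 4 d and 6 d ran through whole libraries. Gm10076 stood at 563 and 2330 CPM inside the rule and at 603 and 2584 in the rest of the cells. Over all cells it stood, in order of time, at 550, 1045, 1438, 175, 603 and 2580. This pattern was not particular to the cells with Pinlyp, Wfdc18 and Serpina11.

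The 3 cells that met the rule at 0 h held 18 UMIs of Pinlyp, 20 of Krt75 (in 2 cells), 452 of Krt15 and none of Krt79, out of 11763 in all. The 5 cells at 4 h held 26 UMIs of Pinlyp, 52 of Krt79 and none of Krt75, out of 21094. The 3 cells at 16 h held 21 UMIs of Pinlyp, 81 of Krt79 and none of Krt75, out of 21252. Serpina11 had 3 UMIs in 1 of the 16 h cells.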
